A study of Mus musculus with 57 samples.

Results

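The interferon regulatory factors (IRFs) are a family of transcription factors that share a DNA-binding domain and carry the signals of pathogen sensors and of interferon into the nucleus. Their messenger RNAs were followed in CD11b-positive brain cells, labelled as microglia, of wild-type mice (WT) and of littermates deficient in the nucleotide receptor P2RY12 (KO). The 8 members, Irf1, Irf2, Irf3, Irf4, Irf5, Irf7, Irf8 and Irf9, were taken by gene symbol from the 2 count tables, which list 50565 and 53278 genes. All 8 were found in both tables and all 8 passed the filter on low counts in both. The rule goes by symbol alone, and the family was picked with earlier results of these data known.

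The groups came from 2 experiments. In the sex experiment the animals were adult and had no treatment label. Among its males were 4 WT and 5 KO animals, and among its females 4 WT and 5 KO. In the LPS experiment, WT and KO animals carried a treatment label of LPS, a bacterial lipopolysaccharide injected intraperitoneally at 1 mg/kg, or of ns. The labels do not say what ns stands for, and it is used here as written. That experiment gave 8 samples in each of the groups WT ns, WT LPS, KO ns and KO LPS, after the libraries WT LPS 8 and WT LPS 9 were summed and counted as 1 sample. The allele behind the deficiency, the sex of the animals of the LPS experiment, and the time between injection and collection are not given in the sources used here. Nothing in the labels of the LPS experiment says that the libraries of a group came from separate animals, so its p-values measure the spread between these samples.

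IRF3 and IRF7 are phosphorylated after pattern-recognition receptors have bound their ligands and then switch on type I interferon genes, IRF3 being present before stimulation and IRF7 being itself an interferon-induced gene. IRF9 is the DNA-binding subunit of the STAT-containing complex that drives genes with an interferon-stimulated response element, and IRF1 is an activator induced by interferon-gamma and by NF-kappaB, opposed at many of the same sites by IRF2. IRF5 carries Toll-like receptor signals to inflammatory cytokine genes, IRF8 is required for the development of microglia and other myeloid cells, and IRF4, known from lymphocytes, dendritic cells and alternatively activated macrophages, competes with IRF5 for the adaptor MyD88.

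The promoters of all 8 members were found in RefSeq's table for the mouse build GRCm38.p6, as windows of 300 bases that end 50 bases after a start site. They were searched on both strands for TTCNNNGAA, the core of a STAT site, for the core of the interferon-stimulated response element, and for 1 kappa-B site. The STAT core was found in the windows of Irf1, Irf2 and Irf8, and is found in 8.3% of all 32851 promoters of that length. The core of the response element was found in that of Irf2, against 3.44% of all promoters. The 1 kappa-B sequence searched was found in none of the members, against 0.155%. Only exact matches to that sequence were counted, and other forms of the kappa-B site were not searched. The windows shown are those of the 4 genes that differed between LPS and ns libraries in KO (Irf1, Irf4, Irf7 and Irf9) and of Irf8, whose window holds 2 STAT cores. Capitals mark the matches, and a window without capitals holds none of the 3 motifs. For Irf1, Irf8 and Irf9, which have 2 start sites in the table, the window of the upstream start site is printed.
Irf1, chr11:53769764-53770063, plus strand: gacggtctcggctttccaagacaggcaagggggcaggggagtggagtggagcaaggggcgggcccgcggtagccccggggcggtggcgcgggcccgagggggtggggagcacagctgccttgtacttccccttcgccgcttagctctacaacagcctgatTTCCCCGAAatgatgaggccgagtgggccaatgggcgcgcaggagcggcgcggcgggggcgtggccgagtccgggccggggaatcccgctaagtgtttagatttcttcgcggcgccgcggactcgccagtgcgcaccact
Irf4, chr13:30748983-30749282, plus strand: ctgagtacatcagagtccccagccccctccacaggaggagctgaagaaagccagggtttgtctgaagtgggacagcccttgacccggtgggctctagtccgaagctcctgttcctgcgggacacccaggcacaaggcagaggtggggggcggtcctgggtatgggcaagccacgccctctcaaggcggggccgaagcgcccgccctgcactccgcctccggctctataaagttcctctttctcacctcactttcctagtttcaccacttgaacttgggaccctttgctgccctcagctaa
Irf7, chr7:141266375-141266674, minus strand: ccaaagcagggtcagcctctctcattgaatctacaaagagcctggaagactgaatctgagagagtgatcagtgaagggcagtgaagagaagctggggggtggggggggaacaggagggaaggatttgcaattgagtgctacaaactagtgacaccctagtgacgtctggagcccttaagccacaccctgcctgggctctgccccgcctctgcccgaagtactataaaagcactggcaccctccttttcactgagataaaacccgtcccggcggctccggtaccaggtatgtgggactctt
Irf8, chr8:120736108-120736407, plus strand: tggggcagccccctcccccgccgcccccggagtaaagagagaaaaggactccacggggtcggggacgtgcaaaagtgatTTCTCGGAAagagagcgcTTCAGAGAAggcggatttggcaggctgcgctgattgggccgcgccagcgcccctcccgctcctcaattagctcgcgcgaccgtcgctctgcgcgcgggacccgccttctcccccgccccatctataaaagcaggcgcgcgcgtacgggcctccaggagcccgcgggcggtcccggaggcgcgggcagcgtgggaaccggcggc
Irf9, chr14:55603735-55604034, plus strand: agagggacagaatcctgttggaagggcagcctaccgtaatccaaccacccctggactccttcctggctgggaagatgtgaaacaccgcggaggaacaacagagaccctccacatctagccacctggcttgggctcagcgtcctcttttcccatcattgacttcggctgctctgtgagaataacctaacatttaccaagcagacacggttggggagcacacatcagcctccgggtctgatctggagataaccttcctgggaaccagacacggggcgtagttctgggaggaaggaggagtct
The first base of the Irf1 match lies 90 bases before the start site, and those of the Irf8 matches 171 and 153 bases before it. A match describes the letters of the window and is not evidence of a bound site.

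In the coordinates of the deposited table (GRCm39), Irf3 (chr7:44647072-44652272) and Irf7 (chr7:140843096-140846412) lie on chromosome 7, on opposite strands, and Irf2 (chr8:47192751-47300493) and Irf8 (chr8:121463097-121483433) on the plus strand of chromosome 8. Irf1 (chr11:53660841-53669200), Irf4 (chr13:30933191-30950965), Irf5 (chr6:29526129-29541874) and Irf9 (chr14:55841442-55847487) are on the plus strand of 4 further chromosomes. In that table a gene's length equals its whole span, exons and introns together. The span of Irf5 overlaps 1049 bases of Tnpo3 on the other strand, so the level of Irf5 may hold reads of Tnpo3. That of Irf2 overlaps 2 noncoding genes with medians of 83.5 and 161 counts per animal, against 11374 for Irf2.

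Total counts per library were 58540000 to 318500000 in the sex experiment and 15910000 to 168400000 in the LPS experiment. P2ry12, the targeted gene, was at 3007 to 5928 CPM (a gene's share of the counts of its library, scaled by TMM) in the 8 WT animals of the sex experiment and at 309.3 to 526.4 in the 10 KO animals. Microglia markers summed to at least 17140 CPM in every library of the LPS experiment, and the markers of that list were detected. CD11b selection also keeps neutrophils, monocytes and other myeloid cells. Among their markers, those of neutrophils varied most, from 636 to 41800 summed CPM between the animals of the sex experiment. In bulk RNA, fewer cells of a type and less RNA per cell cannot be told apart.

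The libraries of the LPS experiment carry a library number in their names, and the 4 WT libraries of number 2 went against their treatment labels. Saa3, an acute-phase gene, was at 1781 and 2491 CPM in 2 libraries with a WT ns label, replicates 1 and 5, and at 1.52 to 64.4 in the other 6 of that group. In 2 libraries with a WT LPS label, replicates 1 and 6, it was at 1.59 and 3.21 CPM, against 1418 to 9720 in the other 6 WT LPS samples. P2ry12, which was lower under LPS in both genotypes, went the same way, with 481 and 927 CPM in the 2 WT ns libraries and 4461 and 12150 in the 2 WT LPS libraries. These 4 libraries stayed in the groups of their labels in the main analysis, and WT results are also given with them apart, as groups of their own, except those of DESeq2 and of single library sets.

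In another way 6 libraries stood apart, those named KO LPS 5, KO ns 5, KO ns 6, WT LPS 7, WT LPS 6 and WT ns 5. Among them, WT LPS 6 and WT ns 5 are also of WT number 2. The 6 libraries held 2.69% to 8.55% of their counts on mitochondrially encoded genes, against 0.787% to 1.81% in the other 26 samples. In the 4 of them that are not of WT number 2, Irf5 and Irf8 were below every library of their group outside the 6. KO LPS 5 had 37.2 CPM of Irf5, against 260.6 to 357 in the other 7 KO LPS libraries, and 67.1 of Irf8, against 398 to 501. Irf2 and Irf7 were lower in all 4 as well, with log2 differences of -0.95 to -2.1 for Irf2 and -0.68 to -1.61 for Irf7. Among all genes tested, these differences lay at percentiles 15.1 to 26 for Irf2 and 27.5 to 39.9 for Irf7. Those of Irf5 lay at percentiles 9.31 to 33.7 and those of Irf8 at 13.3 to 38.2. Many other genes were thus as low or lower in these 4 libraries. Irf3 was lower in 3 of them, down to -1.96, and higher in WT LPS 7 (0.31), whereas Irf9 stayed within 0.22 of the other libraries. Over 15488 genes with a transcript length and GC content in GENCODE, the difference between such a library and the others of its group ran against GC content, with a Spearman correlation across genes of -0.437 to -0.689, and against length with -0.0837 to -0.205. The part of GC content in the levels of Irf2, Irf3, Irf5, Irf7 and Irf8 was not tested, and results were recomputed without the 6 libraries.

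**Figure D1:**
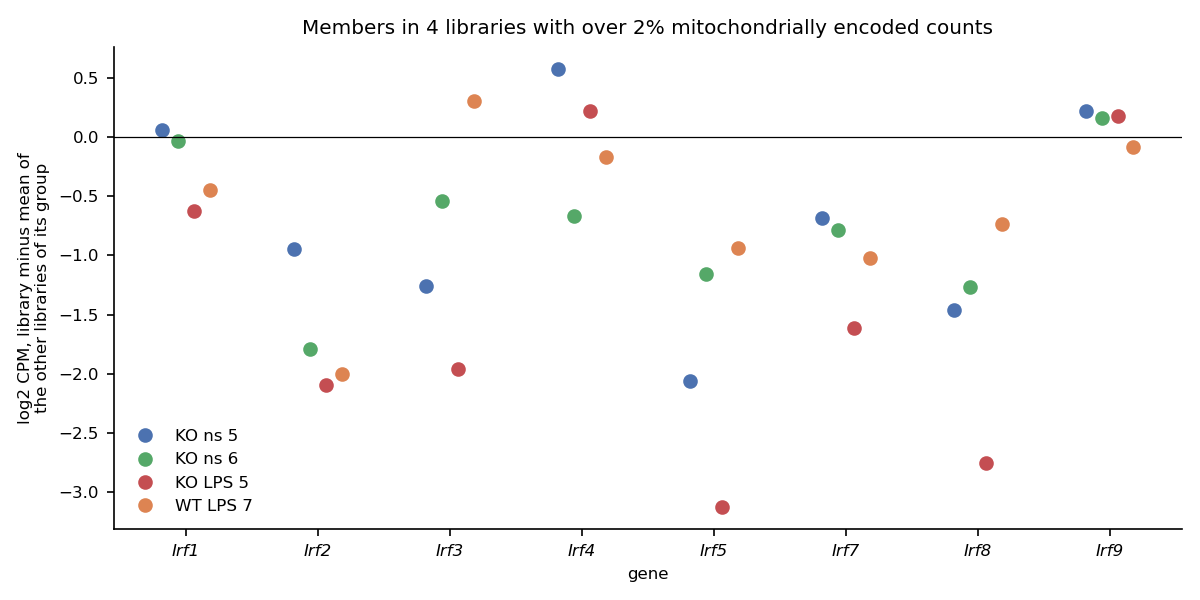
Log2 CPM of each member in 4 libraries with over 2% mitochondrially encoded counts, minus the mean of the other libraries of the same group (vertical axis, log2), one point per gene and library. Irf5 and Irf8 lie below 0 in all 4 libraries, down to -3.13 for Irf5 in KO LPS 5, and Irf9 lies close to 0.

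Levels were compared between members per kilobase of the longest GENCODE transcript, over libraries outside the 6 and outside WT number 2. In KO ns (n = 6), Irf5 (median 179 CPM per kb, range 158 to 187) and Irf8 (161, 159 to 166) were the most abundant, with overlapping ranges. Irf3 followed at 47.3 (45.1 to 52.4), Irf1 at 35.5 (34 to 40.7) and Irf2 at 30.5 (28.3 to 33), above Irf9 at 23.2 (20.5 to 24.1). Irf7 (5.5, 3.47 to 8.11) and Irf4 (3.07, 2.51 to 3.76) were the lowest, and their ranges overlapped. WT ns (n = 6) had the members in the same order, from 170 CPM per kb for Irf5 to 3.01 for Irf4. In KO LPS (n = 7) Irf7 was at 34.4 CPM per kb (23.4 to 42.3), and its range overlapped those of Irf1 (58.1, 40.7 to 83.8), Irf9 (40.5, 39.2 to 45.5) and Irf2 (27.5, 22.8 to 42.6). In WT LPS (n = 5) Irf7 was at 27.9 (25.1 to 54), and its range overlapped that of every member other than Irf4, Irf5 and Irf8.

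**Figure D2:**
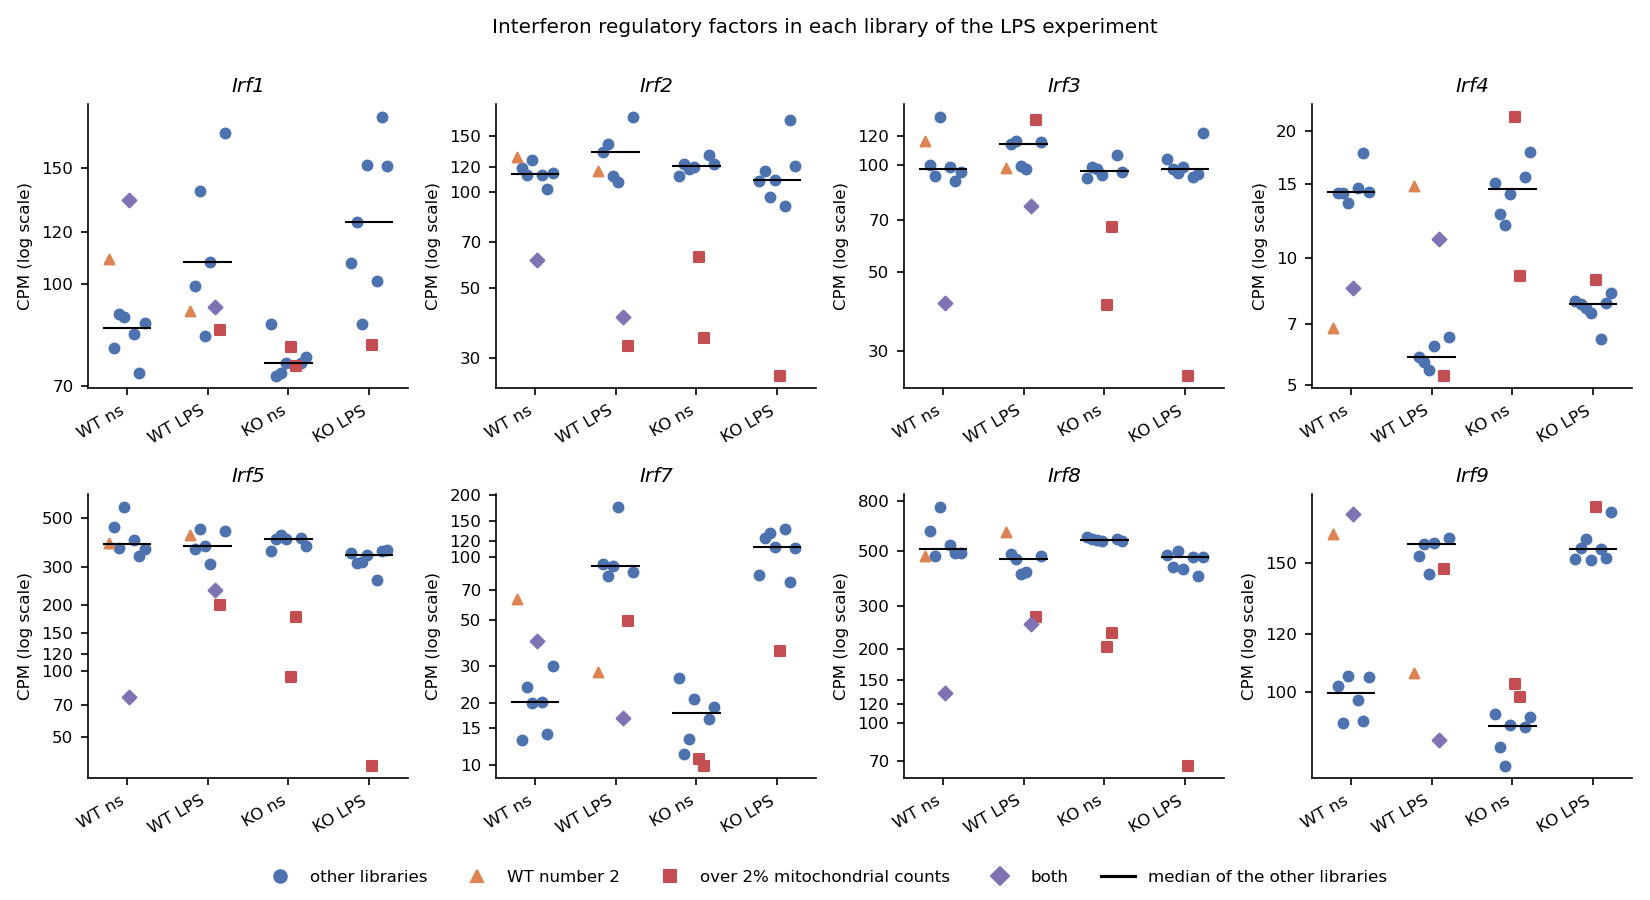
Level of each member in every sample of the LPS experiment (vertical axis, CPM on a log scale) in the groups WT ns, WT LPS, KO ns and KO LPS; symbols mark WT libraries of number 2 and libraries with over 2% mitochondrially encoded counts, and lines are medians of the other libraries. Irf7 is higher in every KO LPS library (35.3 to 137) than in any KO ns library (9.94 to 26.3), and the WT number 2 symbols lie on the side of the opposite treatment for Irf4, Irf7 and Irf9.

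In KO, LPS raised 3 of the 8 IRF genes, Irf7, Irf9 and Irf1, and lowered Irf4. Irf7 rose 6.3-fold, Irf9 1.77-fold and Irf1 1.59-fold, and Irf4 fell to 0.527 of its ns level. These 4 of 8 members passed the test (edgeR's quasi-likelihood test, adjusted p under 0.05 over all genes), where 22.3% of the 15857 genes tested did. The genes raised made up 10.3% and those lowered 12% of all genes tested. Without the 6 libraries and with WT number 2 apart, 5 members passed, Irf8 being added as lower, against 49.9% of genes (25.6% higher, 24.2% lower). With only the 6 libraries left out, 5 passed again, against 51.3%. In library set 1 alone 3 passed (30.6% of 15719 genes did) and in set 2 alone 0 (0% of 16250), a set being one of the 2 runs of library names, each with 4 samples a group and set 2 holding all of the 6 libraries.

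Irf7, the interferon-induced activator of type I interferon genes, was the member that changed most. Its level in KO ns was 9.94 at the lowest, 15 at the median and 26.3 CPM at the highest (n = 8), and in KO LPS 35.3, 111 and 137 CPM (n = 8). All 8 KO LPS libraries were above all 8 KO ns libraries, the lowest of them being KO LPS 5, which had 5.62% mitochondrially encoded counts. Irf7 thus rose by 2.66 ± 0.38 on the log2 scale (SE, adjusted p = 0.0001622), and by 2.65 ± 0.25 without the 6 libraries and with WT number 2 apart. Within set 1 the estimate was 2.67 (adjusted p = 0.01161) and within set 2 it was 2.75 (adjusted p = 0.1634).

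Irf9, the DNA-binding subunit of the interferon-activated complex, had a narrow spread in both KO groups. It was at 79.2 (lowest), 91.3 (median) and 102.4 CPM (highest) in KO ns and at 151.7, 156.9 and 179.2 in KO LPS. The groups did not overlap, and the 3 KO libraries among the 6 were not low for this gene. Lack of overlap is a description, for Irf9 and for the other members. The share of all genes that separate likewise is not given. Irf9 rose by 0.82 ± 0.15 (log2, adjusted p = 0.0004941), and within sets 1 and 2 Irf9 changed by 0.87 (adjusted p = 0.01169) and 0.88 (adjusted p = 0.2349).

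Irf1, an activator induced by interferon-gamma and NF-kappaB, was more variable under LPS. KO ns libraries lay between 72.7 and 86.9 CPM with a median of 75.9, and KO LPS libraries between 80.95 and 179.1 with a median of 115.8. The ranges overlapped, since KO LPS 5 (80.95 CPM, one of the 6 libraries) lay below the highest KO ns library, and KO LPS 3 was close to it at 86.93. Irf1 rose by 0.67 ± 0.17 (log2, adjusted p = 0.004743), with 0.63 for Irf1 in set 1 (adjusted p = 0.02096) and 0.81 in set 2 (adjusted p = 0.3287). The highest LPS sample of each genotype, KO LPS 7 for KO and the summed WT LPS 8 and 9 for WT, was also the highest of its group for Irf2, at 169 and 172.7 CPM.

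Irf4, the member best known from lymphocytes, dendritic cells and alternatively activated macrophages, was the lowest per kilobase and the 1 that fell. KO ns libraries lay between 9.11 and 21.6 CPM (median 14.6) and KO LPS libraries between 6.45 and 8.88 (median 7.82), without overlap. Its counts per library were small, with a minimum of 120 in KO ns and 170 in KO LPS. On the log2 scale it changed by -0.92 ± 0.22 (adjusted p = 0.002926), and by -0.90 ± 0.09 without the 6 libraries and with WT number 2 apart. Within set 1 Irf4 changed by -0.79, which missed the threshold (adjusted p = 0.05557), and within set 2 by -0.97 (adjusted p = 0.2494).

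Some markers of other cell types were lower under LPS in KO, as Irf4 was, and others were not. Of the 5 B cell markers 3 passed as lower in the fit of all libraries, and of the 5 dendritic cell markers 3. None of either list passed as higher, where 12% of all genes were called lower and 10.3% higher. Border-associated macrophage markers were lower in 2 of 5 and higher in 0. Outside the 6 libraries Mrc1 was at 118.8 to 341 CPM in KO ns and at 47.2 to 95.8 in KO LPS, and Pf4 at 6.99 to 23.8 and 1.35 to 3.995, in both cases without overlap. Over libraries outside the 6, summed B cell markers were dominated by Ighm, with a median of 474 CPM in KO ns and 124.6 in KO LPS. The defining B cell gene Ms4a1 was near 0, with at most 0.772 CPM in KO ns, and had 0 counts in 3 of 7 KO LPS libraries. Cd209a, a dendritic cell marker, had a median of 15.1 CPM in KO ns and 0.119 in KO LPS, while Zbtb46 was at 7.04 and 7.63. Medians of Cd79b (16.9 and 18.4 CPM) and Xcr1 (0.884 and 1.47) were also higher in KO LPS. For F13a1, of the border-associated macrophage list, they were 120.6 and 112.1. The part of B cells, dendritic cells or macrophages in the fall of Irf4 was not tested.

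Irf8, which microglia need for their development and which was among the most abundant members, was lower under LPS by a small step that was seen once the 6 libraries were left out. With all libraries its log2 fold change in KO was -0.21 ± 0.29 (adjusted p = 0.668). When the 6 libraries were left out, KO ns lay between 551.9 and 574.6 CPM (n = 6) and KO LPS between 398.1 and 501.3 (n = 7), with no overlap. The estimate for Irf8 was then -0.25 ± 0.10 (log2, adjusted p = 0.03301), and -0.24 ± 0.09 (adjusted p = 0.02749) when WT number 2 was also apart. Of all genes, 51.3% and 49.9% passed in these fits. The 6 libraries were left out after seeing the data. They include the lowest Irf8 values of KO ns (203.9 and 232.3 CPM) and of KO LPS (67.1), so the call rests on that choice. In the fit of all libraries, where Irf8 was not called, 5 of 10 microglia markers passed as lower. Of 4 monocyte markers 1 fell and 0 rose in that fit, where 12% of all genes were called lower and 10.3% higher. Outside the 6 libraries the median of every microglia marker was lower in KO LPS than in KO ns. For Csf1r it was 11400 CPM in KO ns and 9859 in KO LPS, and for Siglech 1573 and 305.8. The medians of the monocyte markers outside the 6 libraries went both ways, from 43.3 CPM in KO ns to 16.5 in KO LPS for Ccr2 and from 57.8 to 207.3 for Chil3, with Ly6c2 and Plac8 also at higher medians under LPS.

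For the remaining members no difference between LPS and ns passed the test in KO, in the fit of all libraries or without the 6. Irf5, the Toll-like receptor effector, had a median of 386.5 CPM in KO ns and 327.2 in KO LPS, and the estimate was -0.16 ± 0.32 on the log2 scale (adjusted p = 0.7757). Without the 6 libraries and with WT number 2 apart, the estimate for Irf5 was -0.21 ± 0.10 (adjusted p = 0.0879). Irf3, the factor present before stimulation, had medians of 94.4 and 95.97 CPM and a log2 fold change of 0.08 ± 0.22, and Irf2, the antagonist of IRF1, had medians of 118.9 and 108.7 CPM and 0.04 ± 0.30. In the fit without the 6 libraries and with WT number 2 apart, the SE was 0.08 for Irf3 and 0.11 for Irf2, with estimates of 0.10 and -0.03.

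**Figure D3:**
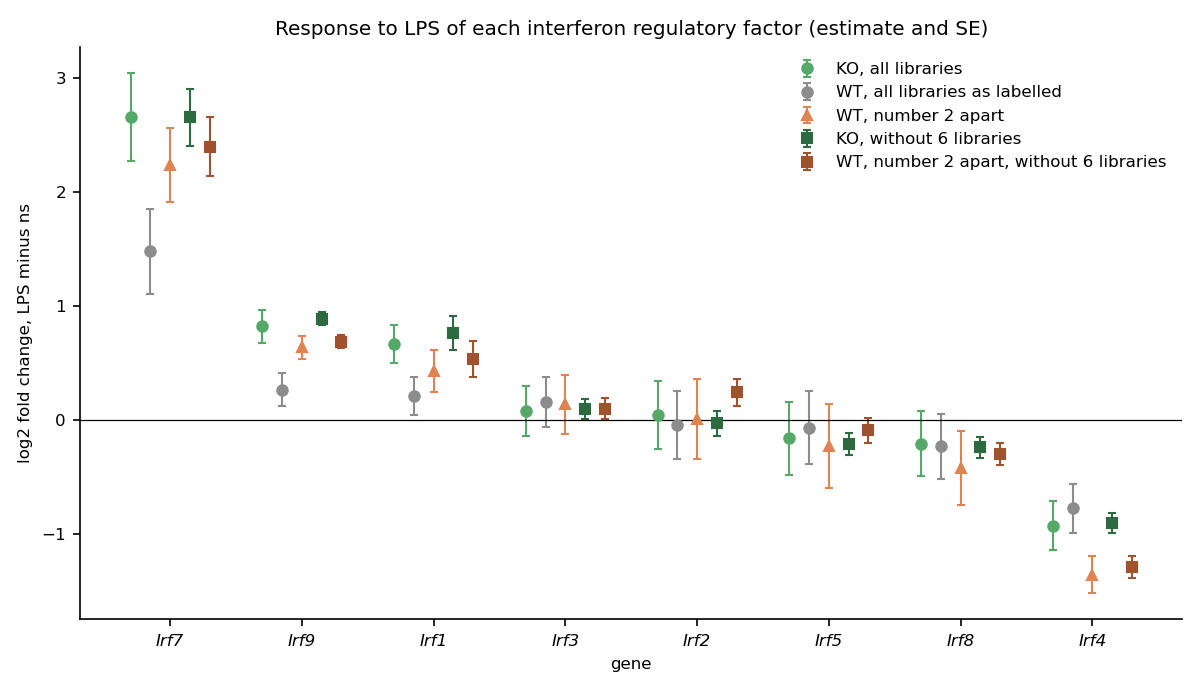
Log2 fold change of each member between LPS and ns libraries (vertical axis, points, with SE as bars) in KO and WT, for all libraries, with WT number 2 apart, and without the 6 libraries with over 2% mitochondrially encoded counts. Irf7 is the highest in each fit, from 1.48 in WT as labelled to 2.66 in KO with all libraries, and Irf4 the lowest, from -0.77 to -1.35.

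In WT, with every library in the group of its label, 0 of the 8 members passed the test and 0 of 15857 genes did (0%). An unadjusted p under 0.05 was found for 2 members and 3605 genes, and DESeq2 called 732 genes (4.62% of those it gave an adjusted p) and 2 members, Irf7 (adjusted p = 0.008431) and Irf4 (adjusted p = 0.02987). With the 4 number 2 libraries apart, 3 members passed (28.1% of 17954 genes did, 13.5% higher and 14.6% lower), Irf7 and Irf9 as higher and Irf4 as lower. In that fit 4 passed in KO (26.2% of genes). With the 6 libraries left out and number 2 kept in its labelled groups, 4 passed in WT, Irf1, Irf7 and Irf9 as higher and Irf4 as lower (32.5%). Without the 6 libraries as well, 5 passed, Irf1, Irf7 and Irf9 as higher and Irf4 and Irf8 as lower, where 49.6% of 18282 genes did (24.5% higher, 25.1% lower).

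Irf7 was at 13.3 (lowest), 20.1 (median) and 30.1 CPM (highest) in the 6 WT ns libraries outside number 2, and at 49.5, 87.7 and 174.9 CPM in the 6 WT LPS samples outside it. The number 2 libraries labelled ns (replicates 1 and 5) had 63.19 and 39.65 CPM, and those labelled LPS (replicates 1 and 6) had 27.97 and 16.83. Of these 4 libraries, 3 lay inside the range of the opposite label, and WT ns 5 lay between the ranges. Irf7 changed in WT by 1.48 ± 0.37 (adjusted p = 0.09504) as labelled, and by 2.23 ± 0.32 (log2, 4.71-fold, adjusted p = 4.835e-06) with number 2 apart. As labelled, Irf7 changed by 1.30 in set 1 (adjusted p = 0.3869) and by 1.65 in set 2 (adjusted p = 0.5608).

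Irf9 was at 90.7 to 105.0 CPM in WT ns and at 145.1 to 162.7 in WT LPS outside number 2. The number 2 libraries were at 164.4 and 175.5 (labelled ns) and at 106.1 and 85.9 (labelled LPS). Its log2 fold change was 0.27 ± 0.15 (adjusted p = 0.2616) as labelled and 0.64 ± 0.10 (adjusted p = 1.625e-05) with number 2 apart.

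Irf4 was at 13.5 to 17.8 CPM in WT ns and at 5.28 to 6.51 in WT LPS outside number 2, while the number 2 libraries had 6.84 and 8.49 (labelled ns) and 14.8 and 11.1 (labelled LPS). In WT, Irf4 changed by -0.77 ± 0.22 (adjusted p = 0.1021) as labelled and -1.35 ± 0.16 (adjusted p = 2.141e-07) with number 2 apart. As in KO, some markers were lower, with 4 of 5 B cell and 3 of 5 dendritic cell markers called lower with number 2 apart. Of all genes, 14.6% were called lower in that fit.

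Irf1 gave 0.21 ± 0.17 (adjusted p = 0.437) in WT as labelled and 0.43 ± 0.18 (adjusted p = 0.07711) with number 2 apart, and passed once the 6 libraries were also left out, with 0.53 ± 0.16 (adjusted p = 0.007064). Irf8 moved from -0.23 ± 0.29 as labelled to -0.42 ± 0.33 with number 2 apart and to -0.30 ± 0.10 (adjusted p = 0.01284) without the 6 libraries as well. Irf2, Irf3 and Irf5 passed in none of these fits of WT, with adjusted p-values of 0.0911, 0.379 and 0.529 in the last of them.

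The KO and WT groups were then compared at each treatment, to ask whether loss of P2RY12 changed the level of an IRF gene. At ns, 0 of 8 members passed (0.114% of genes did), and with WT number 2 apart 0 again (0.0891%). At LPS, 0 of 8 passed (0.126%), and with number 2 apart 0 (0.078%). Leaving out the 6 libraries as well, 0 passed at ns (0.252%) and 0 at LPS (0.252%). The interaction of genotype and LPS, which tests whether the response to LPS differed between KO and WT, called 0 members and 0 genes (0%) in the first 2 of these fits, and 0 members where 1 gene (0.00547%) was called in the last. As labelled, an unadjusted p under 0.05 was found for 2 members at ns, 0 at LPS and 2 in the interaction, and DESeq2 called 0 members in all 3.

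Irf7 and Irf9 had an unadjusted p under 0.05 between KO and WT at ns when libraries were taken as labelled. Irf7 gave -0.81 ± 0.36 (adjusted p = 0.543) and Irf9 -0.35 ± 0.15 (adjusted p = 0.515). With number 2 apart these estimates were -0.37 ± 0.29 for Irf7 and -0.13 ± 0.09 for Irf9. The interaction behaved likewise, at 1.18 ± 0.51 for Irf7 (adjusted p = 0.4378) and 0.55 ± 0.21 for Irf9 (adjusted p = 0.4161) as labelled, and at 0.43 ± 0.41 and 0.19 ± 0.13 with number 2 apart.

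For Irf4 the estimate was larger with number 2 apart. Its difference between KO and WT at LPS was 0.03 ± 0.21 as labelled and 0.42 ± 0.15 (adjusted p = 0.583) with number 2 apart. Without the 6 libraries as well, Irf4 gave 0.36 ± 0.09 (adjusted p = 0.1024). Outside those libraries and number 2, KO LPS lay between 6.45 and 8.29 CPM (n = 7) and WT LPS between 5.44 and 6.51 (n = 5), ranges that overlap by the lowest KO library, KO LPS 6. The adjusted p missed the threshold in each of these fits, and Irf4 rests on 106 to 170 counts in the lowest library of these groups.

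The other genes of the pathway were grouped by role, and each list is described by its calls in KO between LPS and ns, where 22.3% of all genes passed and the median log2 fold change over all genes was -0.02. Of 19 sensors and adaptors, 5 rose and 0 fell, with a median log2 fold change of 0.39. Dhx58 and Ifih1, which belong to the RIG-I-like receptors, changed by 1.80 ± 0.32 and 1.51 ± 0.28, and Cd14, the LPS co-receptor, by 1.02 ± 0.37. Of 9 kinases and their scaffolds 2 rose (median 0.34), namely Ikbke, which encodes the kinase IKK-epsilon that phosphorylates IRF3 and IRF7, by 5.45 ± 0.92, and Tank, a scaffold of that kinase, by 1.03 ± 0.33.

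Of 9 interferon receptor and JAK-STAT genes 3 rose and 0 fell (median 0.24), among them Stat2, which encodes a partner of IRF9, at 1.55 ± 0.39 and the receptor chain Ifnar1 at 0.57 ± 0.19. Of the 5 interferon ligand genes 0 passed the filter on low counts in this fit. With WT number 2 apart 2 of them passed it, Ifnb1 on 69 counts over all libraries, and no change is given for these genes. Of 9 feedback inhibitors 4 rose and 0 fell (median 0.27), led by the cytokine signalling inhibitor Socs3 (3.44 ± 0.53), the ISG15 protease Usp18 (2.18 ± 0.37) and Trim30a (0.95 ± 0.27).

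Of 10 DNA-binding partners and corepressors 1 rose and 2 fell (median -0.33). Batf, a partner of IRF4 and IRF8 on composite sites, rose by 0.83 ± 0.23, while Batf3, its relative in dendritic cells, gave -0.97 ± 0.28 and Ets1 -0.90 ± 0.20. Of 21 target genes 16 rose and 1 fell (median 2.23). The largest changes were in Nos2, the inducible nitric oxide synthase (7.98 ± 1.45), in Il12b, which encodes interleukin-12 p40 (4.71 ± 1.18), and in the chemokine Cxcl10 (3.74 ± 0.82). The target that fell was Ciita, the activator of MHC class II genes (-2.62 ± 0.86, adjusted p = 0.02788).

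In WT as labelled, 0 genes of these lists passed. With number 2 apart the calls in WT were 5 of 19 sensors and adaptors higher, 2 of 9 kinases, 2 of 9 receptor and JAK-STAT genes, 4 of 9 feedback inhibitors and 15 of 21 targets, with 1 partner higher, 2 partners lower and 1 target lower, where 28.1% of all genes passed. Between KO and WT, 0 genes of these lists passed at ns or at LPS, as labelled, with number 2 apart, or without the 6 libraries and with number 2 apart.

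In the sex experiment, 0 of the 8 members passed between KO and WT in males (0.00946% of 31709 genes did), in females (0.164%) or averaged over the sexes (0.432%). The sex-by-genotype interaction called 0 members (0%), and the comparison of female and male WT called 0 (0.0725%). The lowest adjusted p of a member was 0.7463 in males, 0.7743 in females and 0.6964 averaged over the sexes. The 1 member with an unadjusted p under 0.05 in these tests was Irf4 in females, with 15.6 to 19.3 CPM in the 5 KO and 14.0 to 15.7 in the 4 WT animals, overlapping ranges, and an estimate of 0.21 ± 0.09 on the log2 scale (adjusted p = 0.7743). In males Irf4 gave -0.01 ± 0.09.

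**Figure D4:**
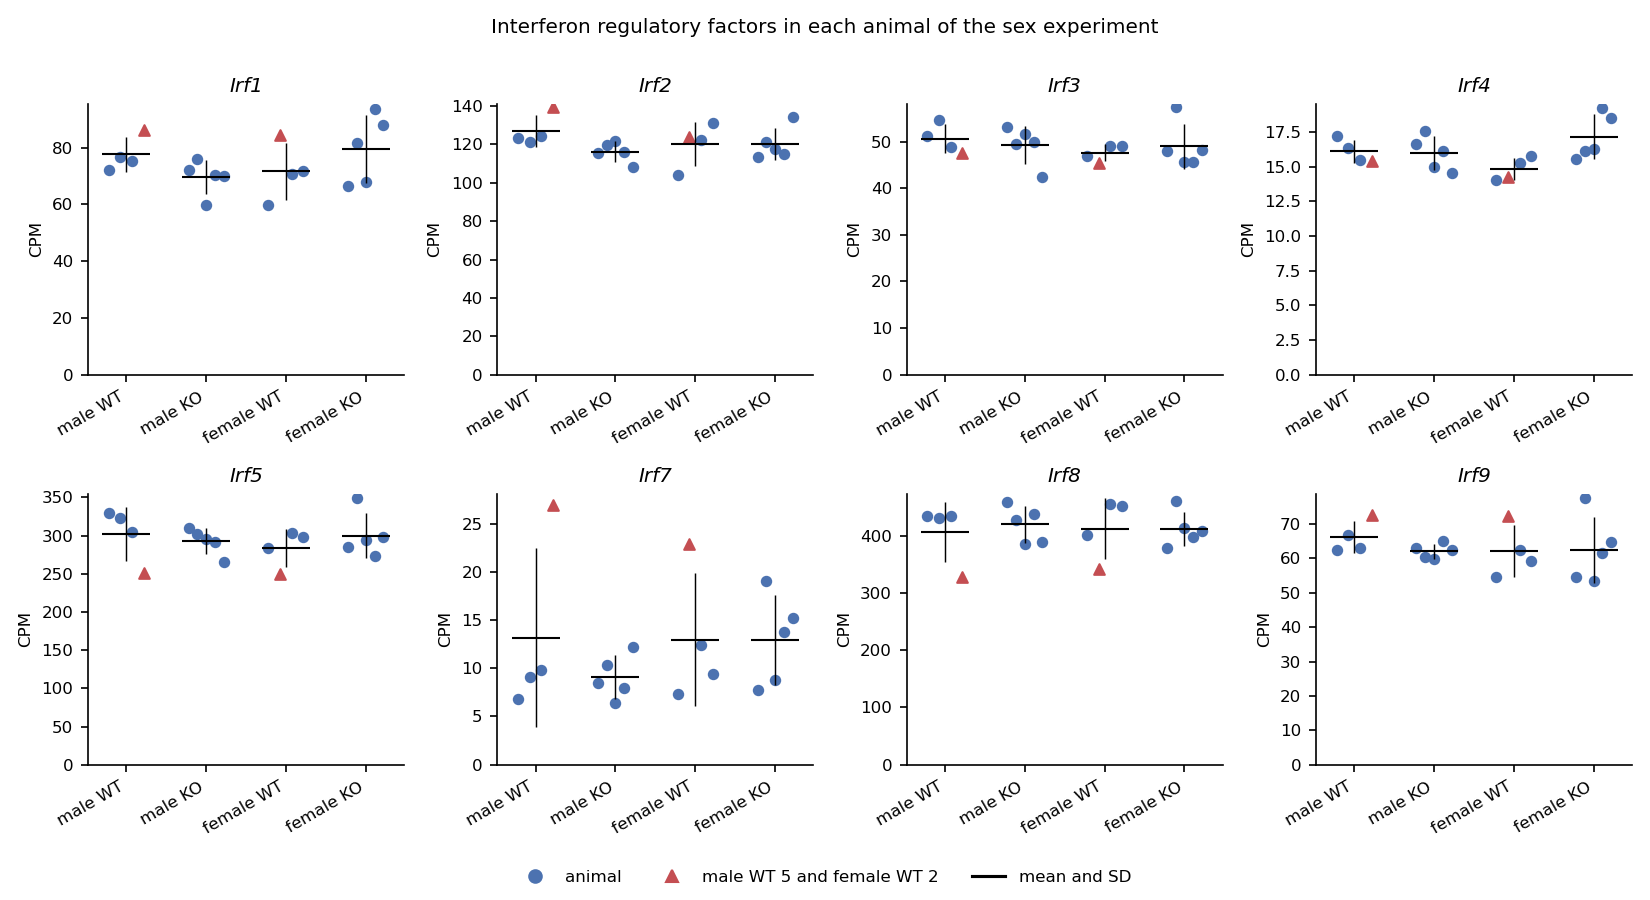
Level of each member in every animal of the sex experiment (vertical axis, CPM from 0) by sex and genotype, with the mean and SD of each group; triangles are male WT 5 and female WT 2. The groups overlap for each member, and Irf7 is highest in the 2 marked animals, at 26.9 and 22.8 CPM.

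The SEs of the averaged difference between KO and WT were 0.05 to 0.08 for the 7 members other than Irf7, and their estimates lay between -0.06 (Irf2) and 0.10 (Irf4). Irf5 was at 302 ± 35.4 CPM in WT males (SD, n = 4) and 293 ± 17.2 in KO males (n = 5), and at 283.7 ± 24.6 in WT females (n = 4) and 300.2 ± 29.2 in KO females (n = 5). Irf8 was at 407 ± 52.8, 420 ± 32.2, 412.5 ± 53.6 and 412 ± 29.9 CPM in the same order. Irf3 held between 42.3 and 57.3 CPM and Irf2 between 104.3 and 139.3 in all 18 animals. Irf9 lay between 53.5 and 77.5 CPM and Irf1 between 59.8 and 93.7, with overlap between all 4 groups.

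Irf7 was the member with the widest spread. Its level was 6.86, 9.07, 9.86 and 26.9 CPM in male WT and 7.29, 9.38, 12.4 and 22.8 in female WT. In male KO it was 6.40, 7.98, 8.52, 10.3 and 12.2, and in female KO 7.75, 8.74, 13.8, 15.2 and 19.0. The highest animal of each WT group, male WT 5 and female WT 2, was also the highest in neutrophil markers, at 41800 and 24640 summed CPM, against at most 6676 in the other 16 animals, and in monocyte markers, at 3477 and 1940 against at most 502.5. All 7 neutrophil markers were above 0 in each animal, and S100a8 was at 12130 and 6585 CPM in these 2 animals. Irf8 was the lowest of its group in both, at 328 and 341 CPM, and Irf5 as well, at 251 and 249. The other animals did not all follow this order. Male WT 4, with 6676 CPM of neutrophil markers, had 9.86 CPM of Irf7, and female KO 2, with 1504, had 19.0.

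The estimate for Irf7 changed sign when these 2 animals were left out. They had the most Irf7 of their WT groups, and no KO animal was left out. The difference between KO and WT could thus only rise, and no conclusion is drawn from the change of sign. In males the log2 fold change of Irf7 was -0.54 ± 0.42 with all animals and 0.08 ± 0.30 without these 2. Averaged over the sexes it was -0.27 ± 0.30 with all animals and 0.25 ± 0.21 without them. No member passed with or without them, and the share of genes called without them was 0.0125% in males, 0.602% in females, 0.969% in the average, 0% in the interaction and 0.0564% between female and male WT. The part of neutrophils or monocytes in the level of Irf7 was not tested.

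Among ns libraries of the LPS experiment, some of those highest and lowest in neutrophil markers were arranged likewise, and others were not. Outside number 2, the WT ns libraries with the highest summed neutrophil markers, WT ns 3 (14110 CPM) and WT ns 8 (13170), had 23.7 and 30.1 CPM of Irf7, and WT ns 2, with the lowest (279), had 13.3. In KO ns the libraries with 5132 and 6028 CPM of these markers, KO ns 1 and KO ns 4, had 26.3 and 20.7 CPM of Irf7, and KO ns 2, with 248.9, had 11.2. The library KO ns 6, with 10040 CPM of the markers and 8.55% mitochondrially encoded counts, went against this with 9.94 CPM of Irf7. KO ns 3, with 921.8 CPM of the markers, had 13.3 CPM of Irf7, below KO ns 7 (347.4) at 16.7 and KO ns 8 (605.5) at 18.9. WT ns 8 also had the most Saa3 of the WT ns libraries outside number 2, at 64.35 CPM. Under LPS, where Irf7 was higher, neutrophil markers summed to 925 to 4311 CPM in KO LPS (median 1968). In KO ns they summed to 249 to 10040 (median 765.6), the highest being KO ns 6. Of the 7 markers 0 passed between LPS and ns in KO. Outside the 6 libraries the median of S100a8 was 178.1 CPM in KO ns and 552 in KO LPS. Medians of S100a9, Retnlg, Ly6g, Ngp and Mmp8 were also higher under LPS, while that of Camp went from 31.9 to 14.4. The part of neutrophils in the rise of Irf7 was not tested.

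**Figure D5:**
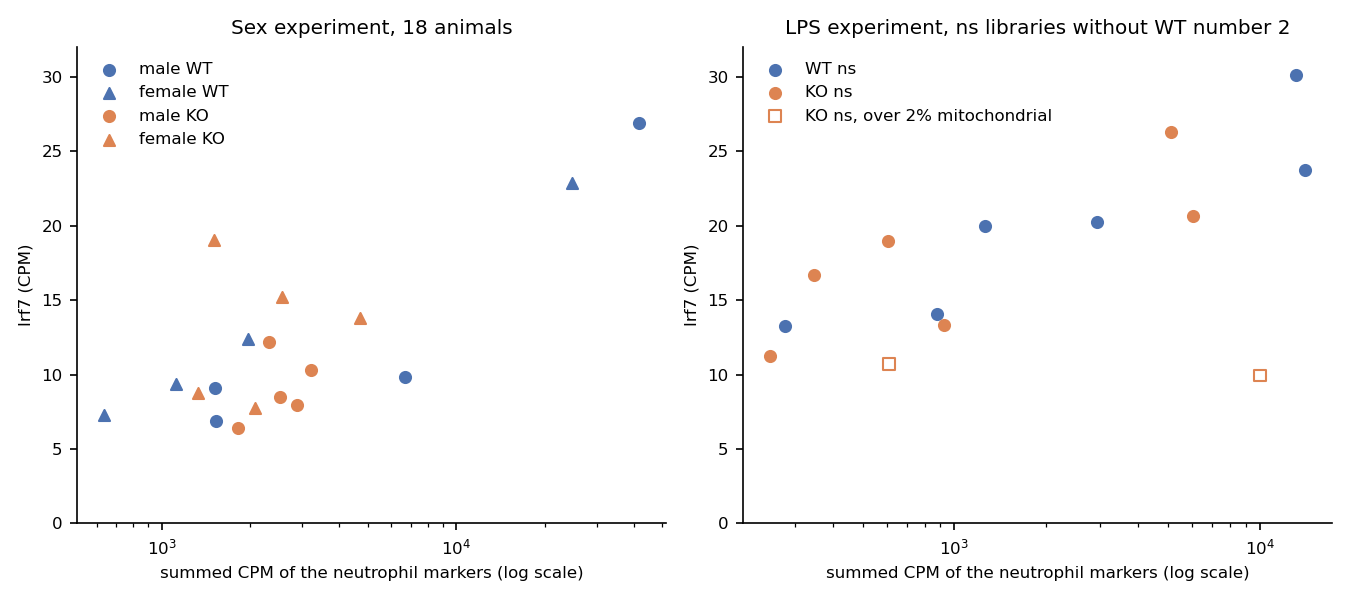
Level of Irf7 (vertical axis, CPM) against the summed CPM of 7 neutrophil markers (horizontal axis, log scale) in the 18 animals of the sex experiment (left) and in ns libraries of the LPS experiment outside WT number 2 (right). The animals at the right edge of the left panel are female WT 2 and male WT 5, with 22.8 and 26.9 CPM of Irf7, and open squares are libraries with over 2% mitochondrially encoded counts.

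Among the other list genes, 1 of 21 targets passed between KO and WT averaged over the sexes, B2m, the light chain of MHC class I, at 0.32 ± 0.07 (adjusted p = 0.03971). Without male WT 5 and female WT 2, B2m gave 0.34 ± 0.07 (adjusted p = 0.01715). Of the 10 partners 0 passed with all animals and 1 without those 2, Batf, at 0.34 ± 0.09 (adjusted p = 0.1535) and 0.41 ± 0.10 (adjusted p = 0.0397). The median of the targets moved from 0.04 to 0.25 on the log2 scale when the 2 animals were left out. For all genes the median was 0.01 in the latter fit. Both animals are WT and were left out after seeing the data. No conclusion is therefore drawn from the call of Batf or from this shift of the targets.

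The genes most like each member in their pattern were found by Pearson's correlation of log2 CPM, over the 32 samples of the LPS experiment and over the 18 animals of the sex experiment. The points share libraries, depth, treatment and, in the LPS experiment, the 6 libraries that stood apart, so the coefficients are descriptions. Irf7 was most like Xaf1, Nos2 and Zbp1 in the LPS experiment (each 0.953) and like Zbp1 (0.946), Oasl2 (0.942) and Adap1 (0.934) in the sex experiment, Zbp1 being named in both. Irf9 was most like Saa3 (0.958), P4hb and Aoah (each 0.956) in the LPS experiment, and like Tap1 (0.875), Borcs6 (0.844) and A930015D03Rik (0.84) in the sex experiment. Irf1 was most like Ddhd1 (0.908), Mrap (0.88) and Strip2 (0.854), and in the sex experiment like Shisa5 (0.903), Anxa6 (0.895) and Stat3 (0.89). Irf4 was most like Gm3383 (0.938) and Zfp810 (0.931), and in the sex experiment like Ddx21 (0.845), Rtcb (0.837) and M6pr-ps (0.833).

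For Irf2, Irf3, Irf5 and Irf8, the nearest genes in the LPS experiment had coefficients of at least 0.965. Irf8 was most like Hsf1 (0.989), Htra2 (0.987) and Tada3 (0.986), Irf5 like Ccdc61 (0.987), Rxrb (0.984) and Brat1 (0.983), Irf2 like Ptk2b (0.985), Eif4g3 and Rnf123 (each 0.981), and Irf3 like Phf23 (0.985), Ube2q1 (0.975) and Zc3h10 (0.965). In the sex experiment Irf8 was most like Elk3 (0.942), Miga2 (0.933) and Nuak1 (0.932), Irf5 like Acads, Tesk1 (each 0.926) and Dhrs7b (0.917), Irf2 like Jak1 (0.88), Ube2l3 (0.856) and Tpm3-rs7 (0.84), and Irf3 like Gm45927 (0.894), Idh3g (0.886) and Cnih4 (0.883). Apart from Zbp1 for Irf7, no gene was among the nearest 3 of a member in both experiments. Between members, Irf5 and Irf8 had a coefficient of 0.965 over the 32 samples and 0.653 over the 26 outside the 6 libraries, and 0.845 over the 18 animals. Irf7 and Irf9 had 0.866 over 32 samples, 0.95 over 26 and 0.743 over 18 animals, and Irf4 and Irf9 had -0.817, -0.899 and 0.013 in the same order.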

How the data were processed

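The members and the gene lists were chosen with earlier results of these data known. The authors deposited whole-number read counts per gene, 1 table per experiment; the submitters' processing notes name STAR 2.6.1, featureCounts, Subread, FastQC, DESeq2 and the build GRCm39. Of the low counts (1 to 20) of a library, 79.0% to 89.2% were even in the sex table and 39.7% to 45.6% in the other. The cause of this difference was not tested, and the tables were fitted separately. Of the samples listed, 6 repeat libraries of the sex experiment match no column, and whether their reads are part of an animal's column is not given in the sources used here. Over genes with at least 20 counts, the chi-square per degree of freedom between the libraries WT LPS 8 and 9 was 1.86, above counting noise alone but far below the 8.31 of the next closest pair. They were summed.

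Genes were filtered with filterByExpr, scaled by TMM and tested with edgeR 4.0.16 (quasi-likelihood F test, robust, R 4.3.3) in 1 model per experiment with a mean per group and, in the LPS experiment, the library set as covariate. P-values were adjusted by Benjamini-Hochberg over all genes tested, 31709 and 15857, and a gene is called at an adjusted p under 0.05. Fold changes are log2 with their standard error. Alternatives were DESeq2 1.42.0, RLE scaling, no filter, a mean of at least 5 CPM, a replicate block, each set alone, no set covariate, the pair kept as 2 samples, leaving out each animal of the sex experiment, and WT number 2 apart. Leaving out the 6 libraries with over 2% mitochondrial counts, or male WT 5 and female WT 2, was chosen after seeing the data. The fit was tested on simulated counts for the averaged KO-minus-WT and the KO LPS-minus-ns comparisons. Totals were 15910000 to 318500000 counts per library, and Irf4 and Irf7 had the fewest counts of the members. The SEs of the members did not follow their counts alone. Named were all 8 members; of each list up to 3 called genes with the largest change in KO and any called between KO and WT; and for each member the 3 genes most correlated with it. Some genes that this rule names are not reported here. Genes singled out beyond this rule, such as Zbtb46, were chosen after their values were seen.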

Additional observations from a re-analysis of the deposited data

Results flagged for a closer look

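Of 64 combinations of a member and a group of 4 to 8 samples, 9 held a sample far from the others by Dixon's ratio at its 95% limit. Chance flags about 1 in 20 independent groups. The members share their libraries, so the 64 are not independent and the 9 are not weighed against that rate. All 9 flags lay in KO LPS 5, WT ns 5, male WT 5 and female KO 2. In KO LPS 5, Irf3 (25.65 CPM, next lowest 92.37), Irf5 (37.17, next 260.6) and Irf8 (67.12, next 398.1) were low, and this library had 5.62% mitochondrially encoded counts. In the library labelled WT ns 5, Irf2 (61.4 CPM, next lowest 102.2), Irf5 (76.6, next 335.3) and Irf8 (132.1, next 478.3) were low. That library had 3.03% mitochondrially encoded counts and is also of WT number 2. In male WT 5, Irf7 was high (26.91 CPM, next highest 9.86) and Irf8 low (328, next lowest 431.2), in the animal with 41800 summed CPM of neutrophil markers. In female KO 2, Irf3 was high at 57.33 CPM, the next highest animal being at 48.28, and this animal was also the highest of its group for Irf5 (349.5), Irf7 (19.0), Irf8 (460.2) and Irf9 (77.5).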

How the results depend on the processing

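In KO between LPS and ns, 4 members passed under DESeq2, RLE scaling, no filter, a mean of at least 5 CPM, the replicate block, no set covariate, the pair kept as 2 samples and WT number 2 apart, 3 in library set 1 alone and 5 without the 6 libraries. In library set 2 alone 0 passed, where 0 of 16250 genes did and where 6 of the 16 samples were those with over 2% mitochondrial counts. In WT between LPS and ns, 0 passed as labelled, 2 with DESeq2, 3 with number 2 apart, 4 without the 6 libraries and 5 with both changes. In the other comparisons 0 members passed under every alternative run, including leave-one-out over the animals of the sex experiment (0 to 0). Over single members no called result changed direction; 125 estimates that were called in neither fit changed sign. In the sex experiment the mean correlation of the deviations of same-numbered samples was 0.00677 over 24 pairs, with 17 at or under 0.1. Over the 97 other pairs it was -0.000769. In the LPS experiment it was 0.244 over 45 same-numbered pairs, with 13 at or under 0.1, against 0.0202 over 339 other pairs. Same-numbered samples of the LPS experiment thus deviated together on average, though not in every pair. The libraries with over 2% mitochondrial counts form some of these pairs. KO LPS 5, KO ns 5, WT LPS 6 and WT ns 5 share number 2 of set 2, and KO ns 6 and WT LPS 7 share number 3. Their part in the mean of 0.244 was not tested. The numbers were not taken to pair samples in the main fits. With the replicate block 4 members passed in KO and 0 in every other comparison. In the LPS experiment Irf4 had the fewest counts of the members, with as few as 75 in a library of WT LPS.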
